A study of Mus musculus with 142 samples.

Results

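Windows in which the musculus homolog replicated earlier than the CAST homolog were chosen by their replication timing (RT) in all libraries together. RT is log2(E/L), the log2 ratio of reads from early over late S phase in a 50 kb window, so that values above 0 stand for early and values below 0 for late replication. In each library the CAST value of a window was subtracted from the musculus value, and a window was taken where the mean of this difference was 0.5 or more over at least 40 libraries. The part of chromosome 16 around the deletions of the study (75 windows with enough libraries, 2 of them at the cutoff) was left out. This gave 1073 of the 41973 windows that could be judged (the tested windows of the plots), of 49264 in all, or 2.56% of those judged and 53.65 Mb of sequence. The opposite cutoff, a mean of -0.5 or less, gave 1341 windows earlier on the CAST homolog. As the difference itself chose the windows, its size, its sign and its spread over the same libraries are given as descriptions with no test.

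All libraries came from F121-9 mouse embryonic stem cells (mESCs), a CAST-129 hybrid whose homologs are called musculus and CAST (castaneus) here, grown in 2i and LIF and labelled with BrdU for 2 h before sorting by DNA content. Values were available for 66 libraries from 53 clones of 26 cell lines, and all lines carry CRISPR deletions of early replication control elements, or of sites inside them, in the Dppa2/4 domain of chromosome 16. The line names give the deleted pieces. A, B and C are the control elements, Z is a site upstream of A, OSN marks binding sites of OCT4, SOX2 and NANOG with their numbers (COSN123 lacks the 3 sites of C), TSS marks a transcription start, and CL20k, CR11.8k, CR13.4k, CR14.6k and COSN1.2.8k are further deletions within C named by side or site and size. The lines were A.B.COSN123, A.BOSN1.COSN123, A.BOSN12.BTSS.COSN123, A.BOSN12.COSN123, A.COSN12, A.COSN123, AOSN.B.COSN123, AOSN.BOSN12.COSN123, AOSN.COSN12, AOSN.COSN123, ATSS.BTSS.CTSS, BOSN1.COSN123, BOSN12.COSN123, BTSS, BTSS.CTSS, CL20k, COSN1, COSN1.2.8k, COSN12, COSN123, CR11.8k, CR13.4k, CR14.6k, CTSS, Z.AOSN.COSN123 and Z.B.C. Most deletions lie on the musculus homolog. In CR11.8k and in clone C4 of CTSS they lie on CAST, and in some clones B, ATSS or BTSS was removed from both homologs. No unedited library was analysed, 7 of the lines are represented by 1 clone, and since a single cross was used, strain and parent of origin cannot be told apart.

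Replication origins fire in clusters, so that long stretches of a chromosome replicate together and form RT domains, joined by timing transition regions in which RT changes steadily. In most of the genome both homologs of a diploid cell replicate at nearly the same time. Asynchrony is known for the X chromosomes of female cells, for imprinted domains, for monoallelically expressed genes such as odorant receptors, and for loci where the parental genomes differ in sequence.

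To show what starts inside the stretches described below, the 250 bases before the RefSeq start are printed, 5′ to 3′, with CG dinucleotides in capitals, for the 6 leading genes whose RefSeq and GENCODE starts lie within 1000 bases of each other. None is printed for the runs led by Ss18, Pid1, St3gal1, Prex2, Car2 and Olfr164. For Pid1 and Olfr164 the starts lay farther apart. St3gal1, Prex2 and Car2 had no entry among the RefSeq promoters used, and Ss18 was not looked up. The printed stretches are reference (C57BL/6J, GRCm38.p6) sequences and hold neither the musculus nor the CAST alleles. Among 32851 RefSeq promoters of the same length, 92.1% held at least 1 CG dinucleotide and the median number was 6. The number was 35 for Slit3, 30 for St8sia6, 13 for Mff, 11 for Hmcn1, 7 for Mpped2 and 3 for Tmem200a, so that these starts covered both CG-rich and CG-poor promoters.
Slit3, chr11:35121206-35121455, plus strand: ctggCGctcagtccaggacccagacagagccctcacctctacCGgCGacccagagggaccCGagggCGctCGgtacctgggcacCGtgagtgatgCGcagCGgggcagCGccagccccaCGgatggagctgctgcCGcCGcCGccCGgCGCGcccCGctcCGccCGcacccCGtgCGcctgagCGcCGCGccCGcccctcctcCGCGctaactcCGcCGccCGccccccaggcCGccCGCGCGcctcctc
St8sia6, chr2:13793521-13793770, minus strand: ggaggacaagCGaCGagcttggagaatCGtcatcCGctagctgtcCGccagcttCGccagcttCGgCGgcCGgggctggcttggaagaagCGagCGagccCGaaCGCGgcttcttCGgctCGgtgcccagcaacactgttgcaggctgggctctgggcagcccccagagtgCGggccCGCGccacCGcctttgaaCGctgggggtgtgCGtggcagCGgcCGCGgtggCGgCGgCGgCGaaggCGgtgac
Tmem200a, chr10:26079053-26079302, minus strand: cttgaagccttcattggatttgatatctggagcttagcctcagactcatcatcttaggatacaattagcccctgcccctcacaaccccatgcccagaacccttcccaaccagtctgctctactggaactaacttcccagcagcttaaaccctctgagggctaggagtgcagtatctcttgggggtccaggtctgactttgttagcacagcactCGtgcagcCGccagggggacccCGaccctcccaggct
Mff, chr1:82724640-82724889, plus strand: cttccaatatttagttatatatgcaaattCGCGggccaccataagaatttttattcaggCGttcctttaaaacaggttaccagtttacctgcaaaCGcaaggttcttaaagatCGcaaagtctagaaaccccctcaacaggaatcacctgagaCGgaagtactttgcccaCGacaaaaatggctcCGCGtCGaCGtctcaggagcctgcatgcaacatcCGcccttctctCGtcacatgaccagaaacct
Hmcn1, chr1:150993436-150993685, minus strand: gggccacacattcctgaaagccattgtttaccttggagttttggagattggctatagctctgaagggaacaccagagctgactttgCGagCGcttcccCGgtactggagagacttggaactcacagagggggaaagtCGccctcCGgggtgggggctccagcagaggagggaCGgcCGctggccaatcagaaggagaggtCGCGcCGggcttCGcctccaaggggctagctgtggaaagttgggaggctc
Mpped2, chr2:106692931-106693180, plus strand: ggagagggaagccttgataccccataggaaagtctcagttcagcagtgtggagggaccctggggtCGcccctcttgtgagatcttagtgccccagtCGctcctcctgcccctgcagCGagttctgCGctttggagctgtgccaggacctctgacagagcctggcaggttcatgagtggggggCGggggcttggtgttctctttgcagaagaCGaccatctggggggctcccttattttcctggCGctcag

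The 1073 windows fell into 174 runs of directly adjacent windows. A run held a median of 5 windows, or 250 kb, and 18 runs were single windows, 72 held 2 to 5, 54 held 6 to 9 and 30 held 10 or more. The 30 long runs contained 408 windows (38.0%). The longest reached 32 windows, or 1.6 Mb, whereas the 212 runs earlier on CAST had the same median and reached 24. Since the authors smoothed the values over 300 kb, neighbouring windows share reads and a run counts as 1 observation rather than as many. Within the runs, 304 windows differed by 0.75 or more, 75 by 1 or more and 3 by 1.5 or more. The median over all 1073 was 0.64, beside a median size of 0.09 for the differences of all judged windows.

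At the lower edge, the windows just inside the cutoff were chr7:131200001-131250000 with a mean of 0.50006 ± 0.13 (SD, n = 66 libraries), chr13:17750001-17800000 with 0.50022 ± 0.22 (n = 62) and chr10:33800001-33850000 with 0.50047 ± 0.22 (n = 66). Just outside were chr7:132150001-132200000 with 0.49980 ± 0.16 (n = 66), chr3:153450001-153500000 with 0.49974 ± 0.20 (n = 66) and chr9:116100001-116150000 with 0.49961 ± 0.23 (n = 61). Both sides of the edge were alike, and in the windows outside it the musculus homolog was earlier in 66, 65 and 60 libraries.

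The windows were unevenly placed along the autosomes. Chromosome 1 held 165 of them in 21 runs, 4.99% of its judged windows, and 15.4% of the set against 7.88% of all judged windows. Chromosomes 10 and 18 followed with 4.25% and 4.20%. The lowest shares were 1.2% on chromosome 4 (31 windows), 1.21% on chromosome 16 (19) and 1.32% on chromosome 14 (25). The opposite set did not follow the same order. Windows earlier on CAST made up 2.84% of chromosome 1, and were densest on chromosome 17 (6.60%) and chromosome 13 (5.04%), where windows earlier on musculus made up 2.22% and 2.54%. By 10 Mb intervals, the densest were 10 to 20 Mb of chromosome 18 with 36 windows and 80 to 90 Mb of chromosome 1 with 33, which was 20.5% of the judged windows there. Runs of neighbouring windows make these counts clumped, and no test was made of them.

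**Figure D1:**
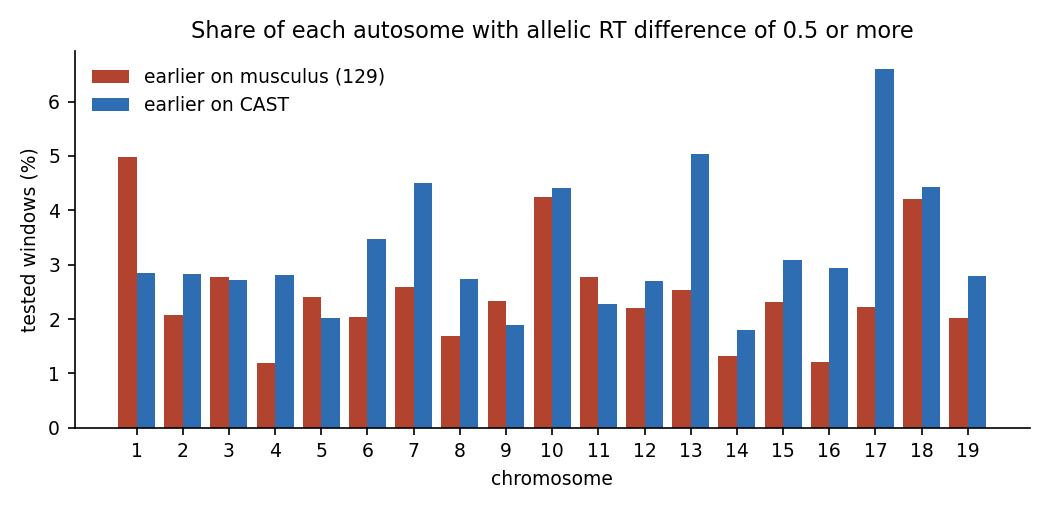
Percent of the judged 50 kb windows of each autosome (x axis) with a mean musculus minus CAST difference of 0.5 or more (red) or of -0.5 or less (blue). Chromosome 1 has the tallest red bar (4.99%) and chromosome 17 the tallest blue bar (6.60%).

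On the musculus homolog these windows had a median RT of 0.15 (quartiles -0.27 and 0.62), and on the CAST homolog -0.57 (quartiles -1.0 and -0.11). Of the 1073, 417 (38.9%) were early on musculus and late on CAST, 438 were late on both and 218 were early on both. Over all judged windows, 2.67% were early on musculus and late on CAST. The homologs therefore lay on opposite sides of 0 in many of the windows, but more often on the same side. The mean RT of both homologs was within 0.5 of 0 in 52.6% of windows, against 24.1% of all judged windows. A difference of 0.5 cannot arise where both homologs are near the same extreme, so this place in the middle of the RT range is partly set by the choice of windows. The windows earlier on CAST were nearly a mirror image, with medians of -0.53 on musculus and 0.17 on CAST.

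**Figure D2:**
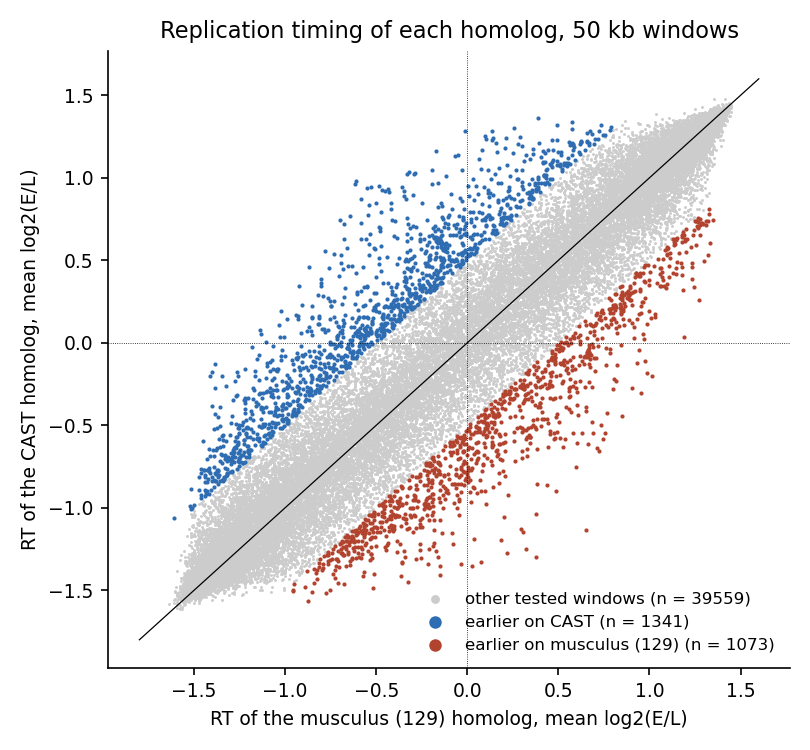
Mean RT of the musculus homolog (x axis) against that of the CAST homolog (y axis) for each judged 50 kb window, both as log2(E/L), with the diagonal of equal RT and dotted lines at 0. The 1073 windows earlier on musculus (red) lie below the diagonal and centre near 0.15 on musculus and -0.57 on CAST, opposite the 1341 windows earlier on CAST (blue).

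The shape of the RT profile was compared between homologs by setting the window of largest difference of each run against the windows 500 kb beyond its ends, where both were measured (167 of 174 runs). On the musculus homolog this window was earlier than both flanks in 69 runs, between them in 79 and later than both in 19. On CAST it was earlier than both flanks in 33 runs, between them in 78 and later than both in 56. Taking the window of largest difference favours a peak on musculus and a valley on CAST. The contrast between these counts is therefore partly set by the choice of window. In 54 runs it lay between its flanks on both homologs, and in 32 it was a local peak on both. In 13 runs a local peak on musculus stood where CAST had a local valley, and in 24 a peak on musculus stood on a slope of CAST. The difference faded with distance. Around the 30 long runs its median was 0.88 at the centre and 0.04 at 1000 kb on either side. As the centre is the window of largest difference, a fall away from it is partly set by the choice.

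**Figure D3:**
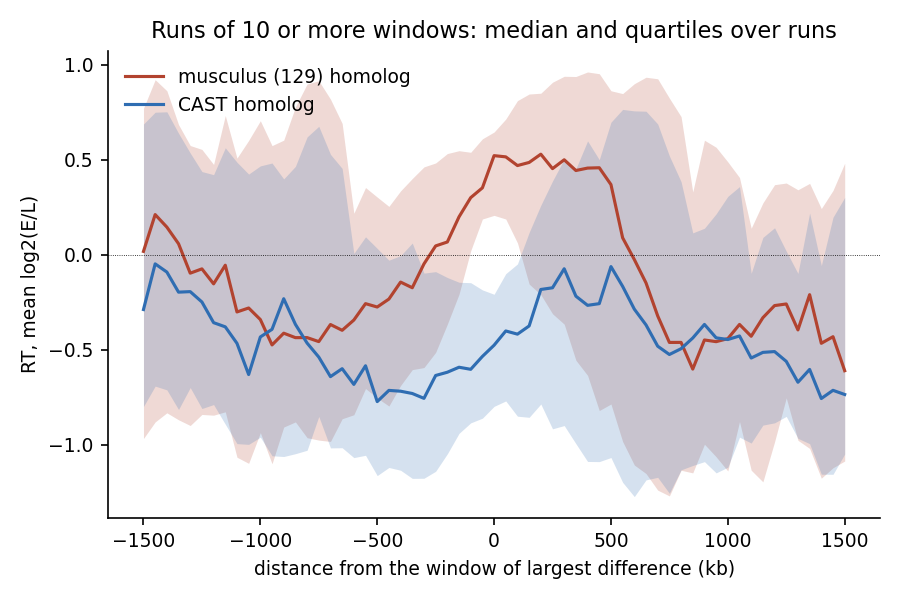
RT as mean log2(E/L) (y axis) at distances from the window of largest difference (x axis, kb) of the 30 runs of 10 or more windows, as median (line) and quartiles (band) over runs for the musculus (red) and CAST (blue) homologs. The medians are 0.52 and -0.48 at the centre, and near 1000 kb they lie together.

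The largest mean difference of any window, 1.78 ± 0.29 (SD, n = 59 libraries), was found on chromosome 16 between 19.1 and 19.15 Mb, in a run of 8 windows from 19.05 to 19.45 Mb. In this window the musculus values had a lowest, median and highest of 0.21, 0.65 and 1.27, and the CAST values of -1.68, -1.10 and -0.62. Every library thus had the musculus homolog early and the CAST homolog late, and the values of the homologs did not overlap. The run lies on the same chromosome as the deletions but well apart from them. It contains the starts of the odorant receptor genes Olfr164 and Olfr165, and 57.5% of its sequence is masked as repeats. Its far flanks were early on both homologs (1.43 on musculus and 1.41 on CAST on the left, 0.45 and 0.62 on the right), so that CAST had a late valley here, whereas musculus at 0.65 lay between its flanks.

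The run with the second largest difference lay on chromosome 3 from 14.8 to 15.3 Mb, with Car1, Car2 and Car3, genes of carbonic anhydrases, which interconvert carbon dioxide and bicarbonate. In its window from 15 to 15.05 Mb the difference had a lowest, median and highest of 0.78, 1.56 and 2.42 over 65 libraries, with a mean of 1.57 ± 0.38 (SD). The highest CAST value, -0.86, was below the lowest musculus value, -0.44. At the starts of Car2 and Car3, 139 and 161 kb away, the mean difference was 0.88 and at Car1 0.58.

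The longest run spanned chr18:13400001-15000000, with a mean over its 32 windows of 0.92 and a lowest, median and highest library of 0.69, 0.90 and 1.2. The library SD of this mean was 0.11, the smallest among the 12 runs described here. RT ran from early to late along it on both homologs, at 0.93 on musculus and 0.88 on CAST 500 kb to the left, and at -1.23 and -1.28 to the right. In its window of largest difference (1.38) the homologs did not overlap, with musculus between 0.13 and 1.11 and CAST between -1.38 and -0.47. Genes starting in it were Ss18, which encodes a subunit of BAF chromatin remodelling complexes, Psma8, a proteasome subunit of germ cells, Taf4b, a TFIID subunit, and Zfp521, a zinc finger protein. The mean difference was 1.17 at the start of Ss18, where musculus was at 0.99 and CAST at -0.18, and 0.75 at the start of Zfp521, where musculus was at -0.29 and CAST at -1.05.

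Chromosome 15 from 66.65 to 67.4 Mb held a run of 15 windows with a mean of 0.98 and a largest window of 1.35 ± 0.36 (SD, n = 66). On musculus this was a local peak, at 0.60 against -0.54 and -1.34 in the flanks, and on CAST a lower one, at -0.75 against -0.92 and -1.39. Starts within it included St3gal1, a sialyltransferase, Ndrg1, a gene induced by hypoxia and differentiation, and Ccn4, a secreted matricellular protein. Their windows differed by 1.24, 1.24 and 1.02.

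On chromosome 11 the run from 34.8 to 35.6 Mb contained the start of Slit3, a secreted ligand of ROBO guidance receptors, and of Spdl1, which acts at kinetochores. The run rested on 58 libraries, as in 8 libraries the CAST homolog had no values on this chromosome. Its largest window differed by a lowest, median and highest of 0.28, 1.49 and 2.41. At the start of Slit3 musculus was at -0.08 and CAST at -1.16, both on the late side. CAST had a valley here between flanks of -0.82 and 0.47.

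A pair of long runs lay close together on chromosome 1. The first, from 82.45 to 83.25 Mb, had a mean of 0.76 over 16 windows and held 20 gene starts, the most of any run, among them Mff, which recruits the mitochondrial fission machinery, and Col4a3 and Col4a4, collagens of basement membranes. At its largest window musculus lay between 0.21 and 1.08 and CAST between -0.72 and 0.11, and these ranges did not overlap. The second, from 83.6 to 84.45 Mb, had a mean of 0.94 over 17 windows with Pid1 as its single start, and it spread most over libraries, from 0.15 to 1.55 with a median of 0.97 (SD 0.32). The lowest values were those of the 3 COSN12 clones (0.15, 0.19 and 0.27) and of the first library of CTSS clone C12 (0.16), whose second library had 1.42. In CTSS clone C4 the 2 libraries had 0.47 and 1.45, so that in both clones the first library was the lower.

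Of the other long runs on chromosome 1, that from 150.75 to 151.5 Mb had a mean of 0.69 over 15 windows, with a mean RT of 0.80 on musculus and 0.11 on CAST. Its largest window, 0.87, held the start of Hmcn1, which encodes an extracellular matrix protein. The run from 10.9 to 11.65 Mb had a mean of 0.63 with the start of Prex2, an exchange factor for Rac, and a mean RT of 0.75 on musculus and 0.12 on CAST. These were the earliest of the 12 runs.

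On chromosome 2 the run from 13.25 to 14.05 Mb held 5 starts and a mean of 0.81 over 16 windows. St8sia6, a sialyltransferase, Vim, which encodes the intermediate filament vimentin, and Trdmt1, a tRNA methyltransferase, had differences of 0.91, 0.91 and 0.86 at their starts. Both homologs had a local peak here, of 0.45 on musculus and -0.49 on CAST, between late flanks. The run from 106.3 to 107.1 Mb had a mean of 0.72, with musculus at -0.09 and CAST at -0.81. Its starts were Mpped2, Arl14ep and Fshb, the beta subunit of follicle-stimulating hormone, and the difference fell from 0.82 at Mpped2 to 0.55 at Fshb, where musculus was at -0.61. On chromosome 10 the run from 25.5 to 26.3 Mb had a mean of 0.78, and RT on musculus passed from 0.99 at Smlr1 to -0.16 at Tmem200a and -0.39 at Samd3, each with CAST lower by 0.52, 0.78 and 0.61.

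**Figure D4:**
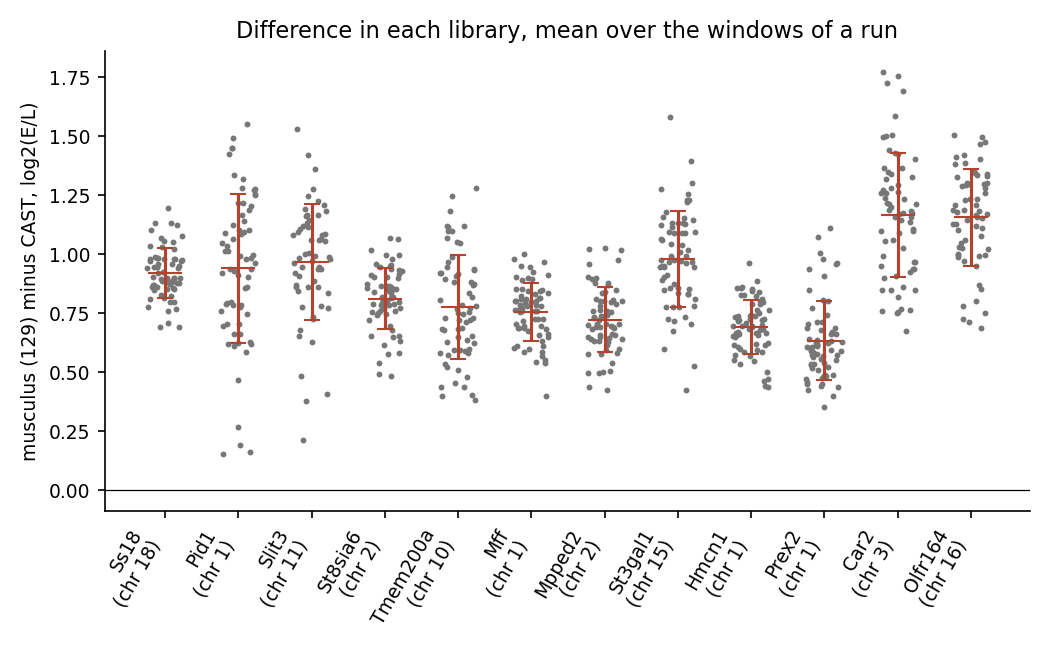
Difference in log2(E/L) between the musculus and CAST homologs (y axis), as the mean over the windows of a run, in each library (grey points) for the 12 runs described, named by their leading gene, with the mean and SD over libraries (red). All points lie above 0, from a lowest of 0.15 in the Pid1 run, and the Ss18 run has the narrowest spread.

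Over the whole set, 868 of the 1073 windows (80.9%) had the musculus homolog earlier in every library with both values, which held for 3.54% of all judged windows. A cutoff on the mean favours the same sign in every library, so this contrast is largely set by the choice. In 133 windows 1 library was at or below 0, and in 72 windows 2 or more were, up to 6. In that window, at chr7:136200001-136250000, 60 of 66 libraries were above 0 and the values reached from -0.30 to 1.17. Averaged over their windows, 144 of the 174 runs were above 0 in every library. That all musculus values lay above all CAST values was less common, in 73 windows (6.80%). Over all 41973 judged windows the count was also 73, so every such window was in the set. The choice by a large difference favours this. The SD of the difference over libraries had a median of 0.22, against 0.19 over all judged windows. A larger SD on CAST than on musculus was seen in 505 of the 1073 windows (47.1%), in 52.6% of all judged windows and in 804 of the 1341 windows earlier on CAST.

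To measure the difference in clones that had no part in the choice, the rule was applied 53 times, each time without the libraries of 1 clone, and that clone was then read in the windows so chosen. Between 1056 and 1093 windows were chosen, of which 1046 to 1072 were in the full set. The median difference of the clone left out was above 0 in 53 of 53 clones, with a mean of 0.66 ± 0.07 (SD) and a range from 0.52 to 0.87, whereas its median over all judged windows was between -0.11 and 0.01. In the clone left out, 96.8% to 100% of the chosen windows were above 0 and 53.8% to 89.6% reached 0.5. The lowest median was that of AOSN.B.COSN123 clone 3C.4 (0.52) and the highest that of AOSN.BOSN12.COSN123 clone D6 (0.87). The clones with the 3 lowest medians, 3C.4, A.B.COSN123 clone 5A.7 (0.54) and BOSN1.COSN123 clone E6 (0.55), also had medians below 0 over all judged windows, of -0.06, -0.09 and -0.11, and lacked values for a chromosome on 1 homolog. ATSS.BTSS.CTSS clone A1 (0.55) and Z.AOSN.COSN123 clone B4 (0.57) were nearly as low with no such chromosome, and the Z.B.C clones, which lacked CAST values for chromosome 14, were at 0.67 and 0.63. The part of missing chromosomes in the clone medians was not tested. With the deletion on CAST, CR11.8k clone 50 had 0.71 and CTSS clone C4 0.69, and CTSS clone C12, with the same deletion on musculus, had 0.75. Among the 11 clones with repeated libraries, the SD within a clone of the median over the set was 0.05, and between clones it was 0.07.

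**Figure D5:**
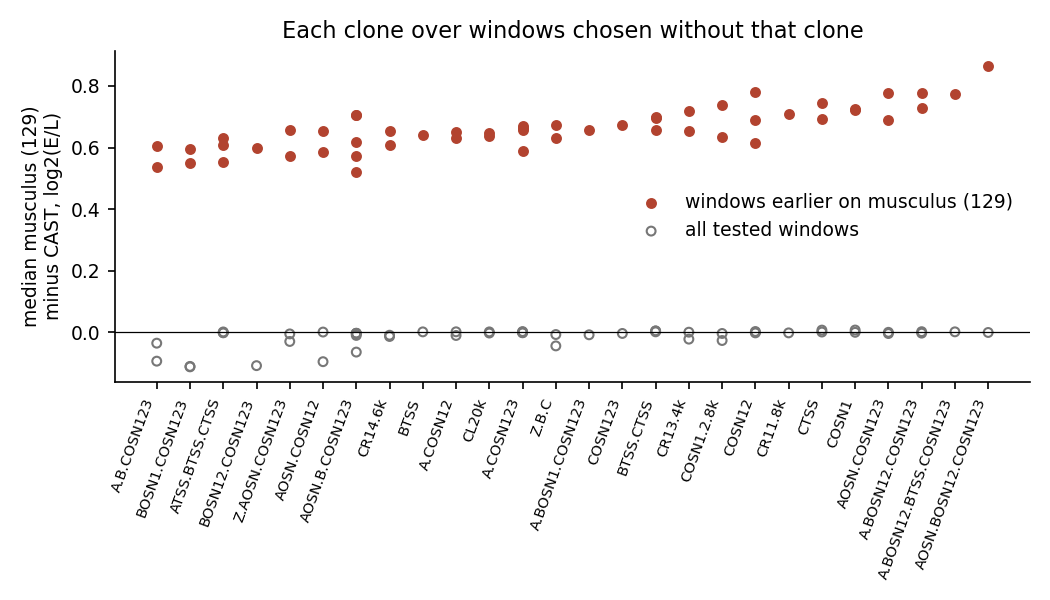
Median musculus minus CAST difference in log2(E/L) (y axis) of each clone (points) by cell line (x axis), over the windows chosen without that clone (red) and over all judged windows (grey circles). The red points of all 53 clones lie between 0.52 and 0.87, and the grey circles between -0.11 and 0.01.

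The choice of windows used the mean over all libraries and not the contrast between cell lines. High values in some lines can still lift a window past the cutoff. At chr7:136200001-136250000, with a mean of 0.50, line means went from 0.03 to 1.05. The share called is therefore not wholly free of the choice. A one-way F-test on clone means, with the within-line variance moderated over all windows by limma and Benjamini-Hochberg adjustment over all windows, called 7.81% of the 40939 windows that could be fitted at an adjusted p under 0.05. Of the windows earlier on musculus, 333 of 1069 (31.2%) were called. The same was seen in 31.4% of the windows earlier on CAST and in 11.6% of the other windows whose mean RT lay in the middle range of the set (-0.64 to 0.24), so both directions had close to the same share. Called windows lay in 106 of the 174 runs, and in 16 runs all fitted windows were called. In the called windows the lowest line mean had a median of 0.30 and the highest 1.28, and 23 of the 333 had a line mean at or below 0. Lines differed mostly in how much earlier the musculus homolog was. The cutoff on the mean over the same libraries favours line means above 0, so this is partly set by the choice. The line AOSN.BOSN12.COSN123, which is 1 clone, was the highest line in 47.4% of the called windows, and without it 239 were called. Differences of this clone were also wide elsewhere, though not the widest. Outside both sets their interquartile range was 0.39 (rank 4 of 53 clones), against 0.30 in the median clone. ATSS.BTSS.CTSS clones A8 (0.44) and A1 (0.40) and COSN12 clone C6 (0.40) ranked above it. Those 2 lines, of 3 clones each, were each the highest in 3.90% of the called windows. In windows earlier on CAST its median difference was -0.79, against -0.66 in the median clone and -0.84 in BOSN12.COSN123 clone A2. Why this line was so often the highest was not tested. Many lines with several deletions were made from the COSN123 line, so the deletions and the ancestry of a clone cannot be told apart.

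The window with the smallest adjusted p was at chr1:83850001-83900000 in the Pid1 run (adjusted p = 2.79e-06, limma F-test). Here the 3 clones of COSN12, with 1 library each, differed by 0.07, 0.08 and 0.13, and the means of the 50 other clones by 1.09 ± 0.28 (SD), from 0.47 to 1.73. These clone means hide a wide spread between repeat libraries of a clone. The CTSS clone C12 had -0.48 in its first library, lower than any COSN12 clone, and 1.43 in its second, and the COSN123 clone had between 0.77 and 1.70 in its 4 libraries. With libraries in place of clone means the adjusted p was 0.0016, and without the line CTSS it was 8.18e-06 (limma F-test). The musculus homolog of the COSN12 clones was at -1.03, -0.92 and -0.83, below the lowest mean of the other clones (-0.79), whose average was -0.14 ± 0.26. Their CAST homolog, at -1.10, -1.0 and -0.97, lay within the range of the others (-1.64 to -0.85). In the 3 COSN12 clones the homologs were therefore nearly alike at this window, both late. The next lowest line in clone means was CTSS with 0.60. The names of A.COSN12 and AOSN.COSN12 share the COSN12 deletion. Averaged over the Pid1 run, their clones had 0.98 and 1.09 (A.COSN12) and 1.14 and 1.10 (AOSN.COSN12), above the median library (0.97). The parts of the deletion and of the round in which the libraries were made were not tested for the COSN12 values.

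Among the 12 runs described, the window of largest difference was called in 5. In the St3gal1 run (adjusted p = 4.75e-05, limma F-test) the line means went from 0.60 in CR14.6k to 2.27 in AOSN.BOSN12.COSN123, and all 15 windows were called. CAST was at -0.06 in CR14.6k and -0.76 ± 0.33 in the 51 other clones, while musculus was at 0.55 and 0.60 ± 0.21, so that here the line with the smaller difference had an earlier CAST homolog. In the Pid1 run (adjusted p = 0.0018, limma) the means of COSN12 (0.39) and CR11.8k (1.77) were farthest apart. In the Slit3 run (adjusted p = 0.0034, limma) the 5 clones of AOSN.B.COSN123 had a mean of 0.84, with musculus at -0.25 against 0.43 ± 0.27 in the 42 other clones and CAST at -1.09 against -1.14 ± 0.28. For the Tmem200a run the adjusted p was 0.0071 (limma), and for the Car2 run 0.023 (limma). The Ss18, Mff, Hmcn1, Prex2, St8sia6, Mpped2 and Olfr164 runs were not called at this window, with adjusted p between 0.18 and 0.71 (limma), which does not show that the lines were alike.

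Protein-coding genes (GENCODE vM21) were counted by their starts. Of the 174 runs, 112 held 359 starts and 62 held none. A start was found in 25.9% of the windows, against 29.3% of all judged windows and 21.1% of the windows earlier on CAST. The median GC content was 41.1%, against 41.8% over all judged windows and 41.0% in windows earlier on CAST, and the masked repeat share was 29.8%, against 30.1% and 31.3%. Mean RT changed faster along the windows, by a median of 0.19 per 100 kb against 0.13 over all judged windows, and by 0.18 in windows earlier on CAST. Such differences from the genome partly follow from mean RT. Among windows with a mean RT of -0.5 to 0, the median GC was 41.2% in the set and 41.3% in all judged windows, the slope was 0.23 and 0.25, and the number of starts per window 0.276 and 0.274. The slope was also smaller in the set from -1 to -0.5 (0.18 against 0.20) and from 0 to 0.5 (0.20 against 0.24). Among the early windows of 0.5 to 1, the set had more starts per window (0.595 against 0.483) and a smaller slope (0.13 against 0.20). Among the late windows of -1.5 to -1, where the set held 42, it had a larger repeat share (39.5% against 35.6%) and a larger slope (0.13 against 0.08). The faster change over the whole set was thus not seen at like mean RT between -1 and 1. The octamer ATGCAAAT, the sequence bound by OCT4, searched on both strands, was found in 97.3% of the windows and 96.1% of all judged windows, with a median of 4 copies in each.

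Across gene families, 359 of the 18771 protein-coding genes that start in judged windows (1.91%) started in a window earlier on musculus. None of 22 pluripotency factors, 35 lineage factors, 64 imprinted genes or 40 neuronal adhesion and synapse genes did. For odorant receptors the count was 17 of 835 (2.04%), for vomeronasal receptors 1 of 200, for zinc finger genes 11 of 354 (3.11%), and for other gene clusters that vary between strains 3 of 263 (1.14%). The shares of windows earlier on CAST were 1.2% for odorant receptors, 0.56% for zinc finger genes and 4.94% for the strain-variable clusters. Windows earlier on CAST also held 3 of the 64 imprinted genes (4.69%), 2 of the 40 neuronal genes (5%) and 5 of the 200 vomeronasal receptors (2.5%), and none of the pluripotency or lineage factors. Genes of 500 kb or more counted 10 of 196 (5.10%). These are small numbers from clustered genes, which share windows, and no list was tested.

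The zinc finger and odorant receptor genes came mainly from a few loci. On chromosome 11, a run of 10 windows from 50.75 to 51.25 Mb held the starts of Zfp354c, Zfp879, Zfp454, Zfp2, Zfp354b and Zfp354a together with 5 odorant receptor genes, Olfr1378, Olfr1377, Olfr51, Olfr54 and Olfr1375. At Zfp354a the difference had a lowest, median and highest of 0.49, 0.89 and 1.47 over 58 libraries, with musculus at 0.60 and CAST at -0.30. At Zfp354c it was 0.18, 0.56 and 0.87, and both homologs were early (0.80 and 0.21). The 5 odorant receptor genes lay between these 2 windows, at 0.74 and 0.83 on average. On chromosome 9, a run of 7 windows from 19.5 to 19.85 Mb held 7 odorant receptor genes and Zfp317. At Olfr857 it reached from -0.01 to 1.63 with a median of 0.87, and both homologs were late there, at -0.26 and -1.10. On chromosome 5 the start of Zfp157 differed by 0.77, 1.21 and 1.73 (lowest, median and highest), the largest among the zinc finger genes, with musculus at 0.60 and CAST at -0.61.

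Single members of the variable clusters started in windows of the set. Defb33, a beta-defensin gene of a cluster on chromosome 8, differed by 0.77 to 1.91 with a median of 1.30 over 64 libraries, with musculus at -0.04 and CAST at -1.34. Vmn1r184, a pheromone receptor gene on chromosome 7, differed by 0.40 to 1.51 with a median of 0.82, and its neighbour Cyp2a4, a cytochrome P450 gene, by -0.23 to 1.94 with a median of 0.59 over 50 libraries. In such clusters copies differ between strains and few reads can be placed, and how far this enters the values was not tested.

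Long genes with a start in the set included Slit3, Pde4d, a phosphodiesterase that breaks down cAMP, Gpc6, a glypican of the cell surface, Dpp6, which regulates potassium channels, Dock1, an exchange factor for Rac, and Mecom, a transcription factor of blood stem cells. At Pde4d the difference had a lowest, median and highest of 0.38, 0.75 and 1.45 over 62 libraries, with both homologs early (0.89 and 0.14). Mecom was the earliest, at 1.28 on musculus and 0.71 on CAST, with a median of 0.56. At Gpc6 both homologs were late (-0.45 and -0.96), with a lowest of -0.06 and a median of 0.45. The 10 long genes thus spanned the RT range, and their median differences were between 0.45 and 1.07.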

How the data were processed

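E/L Repli-seq libraries were made by the authors from BrdU-labelled early and late S-phase fractions of F121-9 clones. The submitters' processing notes name Trim Galore, cutadapt and bedtools and the build mm10, and the study's methods name bowtie2 on an N-masked genome, SNPsplit and Samtools; versions are not given in the sources used here. The deposited values are log2 ratios of early over late reads in 50 kb windows, which the authors scaled, quantile-normalized and smoothed by loess over 300 kb. Smoothing ties neighbouring windows, and after quantile normalization differences are relative within a library. Depth is unknown, since only ratios were used.

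All 138 columns of 66 libraries were used, and 10 samples without a column were not analysed here. Allele numbers in the headers were tied to strain (musculus, 129SvImJ, as the first) through the deletions listed by the study. Repeat runs of 3 clones were averaged. The members, lists and named runs were chosen with earlier results of these data known. Named runs are the 10 longest and the 5 with the largest single window, with up to 3 starting genes nearest to that window. The F-test took clone means, windows with clones of at least 20 lines and at least 15 residual degrees of freedom, limma 3.58.1 (squeezeVar) and R 4.3.3, and was tested on simulated data. The p-values set the differences between line means against the spread between clones of the same line. The labels do not say which libraries were made together. Variation shared by clones of a line that were made together is not in that spread. Lines with a single clone add nothing to that spread. Sequence features came from GRCm38.p6, the same build as mm10, and GENCODE vM21. Other steps used Python 3.11.15, numpy 2.4.6, pandas 2.3.3 and matplotlib 3.10.9.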

Additional observations from a re-analysis of the deposited data

Results flagged for a closer look

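In 38 sets of clones or libraries of the same line, 1 value stood apart by Dixon's ratio, and chance flags about 1 set in 20. In the Hmcn1 run of chromosome 1, AOSN.B.COSN123 clone 3C.4 differed by 0.50, with the nearest of the other 4 clones at 0.67. This clone lacked values for chromosome 13 on CAST, and its median over all judged windows was -0.06.

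The musculus minus CAST difference in the window of largest difference depended on the cell line (F-test on clone means with limma's moderated variance, adjusted over all windows) in the Pid1 run (adjusted p = 0.0018), the Slit3 run (adjusted p = 0.0034), the Tmem200a run (adjusted p = 0.0071), the St3gal1 run (adjusted p = 4.75e-05) and the Car2 run (adjusted p = 0.023). In these windows, chosen for a large mean difference, the line means were above 0 throughout. They went from a lowest of 0.39 in the Pid1 run to a highest of 2.27 in the St3gal1 run.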

How the results depend on the processing

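The count of 1073 windows followed the cutoff, with 1775 windows in 277 runs at 0.4 and 650 windows in 113 runs at 0.6, and every sixth window alone gave 182, as fewer windows were judged. Averaging clones first (1084, of which 1049 were in the set), clones and then lines (1115, 1039), the median over libraries (1050, 1019), a minimum of 20 (1092) or 60 libraries (931), subtraction of each library's median difference (1158, all 1073 kept), leaving out the 13 libraries with a missing chromosome (1165, 1055) and counting repeat runs as libraries (1075) moved it by less. Without each line in turn it was 1047 to 1103, with at least 1034 shared. The number of runs was 167 with gaps of 1 window bridged, 179 with clones first and 185 after centring. Under 4 ways of averaging and centring, the 48 recomputed differences of the named runs moved by at most 0.06. The 333 windows called between lines became 423 with libraries as units, 270 without moderation, 357 with lines of 2 or more clones, 315 after centring, and 234 (without AOSN.B.COSN123) to 387 (without ATSS.BTSS.CTSS) as lines were left out. Replicate numbers mark repeat libraries of a clone, and same-numbered libraries of different lines did not deviate together (correlation -0.12 to 0.08, median 0.00 over 86 pairs). Between clones of 1 line the median for the same and for another number was -0.12 and -0.15 in AOSN.B.COSN123, -0.47 and -0.46 in A.B.COSN123, and -0.06 and -0.47 in CTSS, with 2 pairs each in the last 2. Over the 5 lines with numbered libraries alone, where 813 of the windows could be fitted, 166 were called with the replicate block and 173 without it. Missing values and unknown depth limit single windows, and 7 lines rest on 1 clone.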
